A study of Mus musculus with 2 samples.

Results

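T cells with transcripts of the Ly49 receptor genes Klra1 and Klra6 numbered 219 of the 10041 filtered cells. There were 111 among 4606 cells of the metformin library and 108 among 5435 cells of the control library. A cell belonged to the set, called Klra1/Klra6 T cells below, when it held at least 2 unique molecular identifiers (UMIs, each 1 captured transcript) of Klra1 and Klra6 together. It also held at least 2 UMIs of Cd3d, Cd3e and Cd3g together, which encode chains of the CD3 complex of T cells. Cells with more than 1 Trdc UMI (γδ T cells), any Ncr1 UMI (NK cells), any Foxp3 UMI (regulatory T cells), more than 3 UMIs of the C1q genes (macrophages) or more than 1 Cd79a UMI (B cells) were left out. Transcripts of these 12 genes therefore describe how the cells were chosen and support nothing further. At the threshold, 19 metformin and 32 control cells held exactly 2 UMIs of Klra1 and Klra6 and were kept, while 41 metformin and 38 control T cells held 1 UMI and were not.

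The cells came from C57BL/6 mice that carried GL261 tumours, a mouse glioma line placed inside the skull, and that drank either water with metformin or control water, labelled DW. On day 20 after injection the tumour area was cut out of the brain, and cells with high surface CD45, a protein of leukocytes, were sorted for a 10x Genomics 3' v3 library. Both groups shared the strain, the tumour line and the day, and each group was 1 library. Dose, sex, age, mice per library and sort gates are not given in the sources used here, and the series title names tumour hypoxia and γδ T cells. With 1 library per group no test of metformin was possible, and no p-value is given. Intervals are exact 95% intervals that cover counting error only, treat every UMI as independent, and leave out the spread between cells and between mice. Per library, 5473 metformin barcodes held 47142356 UMIs and 6174 control barcodes held 49651404 UMIs. The Klra1/Klra6 T cells had medians of 8877 UMIs in metformin and 9100 UMIs in control, and of 2291 and 2387.5 detected genes. The libraries shared 9 barcodes, none of them in this set, and the doublet caller Scrublet marked none of these cells (37 of all metformin and 62 of all control cells were marked).

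Ly49 receptors are C-type lectin-like membrane proteins that bind MHC class I molecules. Most carry a cytoplasmic inhibitory motif and restrain the cell when they meet their ligand, whereas Ly49D (Klra4) and Ly49H (Klra8) lack it and signal through the adaptor DAP12, encoded by Tyrobp. They are best known from mouse NK cells, and they also occur on some memory CD8 T cells, on NKT cells and on CD8 T cells described as regulatory. Klra1 encodes Ly49A, Klra6 encodes Ly49F, Klra7 encodes Ly49G, Klra9 encodes Ly49I and Klra3 encodes Ly49C, all inhibitory members of the family.

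All these genes lie in 1 cluster on chromosome 6 of the mouse genome build GRCm38 (mm10), on the minus strand, in the order Klra5, Klra6, Klra4, Klra8, Klra9, Klra7, Klra3 and Klra1. Klra6 spans chr6:130013033-130026954, Klra7 chr6:130218605-130233322 and Klra1 chr6:130363917-130386874. The windows around 4 RefSeq transcript starts, 250 bases before to 50 after, are shown because 3 belong to genes found in these cells (Klra6, Klra7 and Klra1) and 1 (Klra8) to a gene that was near 0 there and high in NK cells. The windows are chr6:130026905-130027204 for Klra6, chr6:130233273-130233572 for Klra7, chr6:130386825-130387124 for Klra1 and chr6:130129849-130130148 for Klra8, read 5′ to 3′ on the minus strand. Capitals mark a match to ATCAAAG, the core bound by T cell factor and LEF proteins, or to TGTGGT, the core bound by RUNX proteins, each searched on both strands.
Klra6: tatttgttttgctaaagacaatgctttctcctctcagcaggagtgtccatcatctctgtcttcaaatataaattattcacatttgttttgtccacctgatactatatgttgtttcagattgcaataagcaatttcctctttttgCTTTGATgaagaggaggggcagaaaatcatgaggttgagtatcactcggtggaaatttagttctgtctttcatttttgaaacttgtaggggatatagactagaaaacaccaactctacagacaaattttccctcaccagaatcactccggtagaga
Klra7: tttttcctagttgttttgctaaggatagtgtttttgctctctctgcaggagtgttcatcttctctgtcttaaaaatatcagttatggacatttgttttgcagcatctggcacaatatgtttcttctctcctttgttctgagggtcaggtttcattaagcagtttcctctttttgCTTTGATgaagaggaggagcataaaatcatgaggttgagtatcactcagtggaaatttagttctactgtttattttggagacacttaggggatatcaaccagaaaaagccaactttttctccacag
Klra1: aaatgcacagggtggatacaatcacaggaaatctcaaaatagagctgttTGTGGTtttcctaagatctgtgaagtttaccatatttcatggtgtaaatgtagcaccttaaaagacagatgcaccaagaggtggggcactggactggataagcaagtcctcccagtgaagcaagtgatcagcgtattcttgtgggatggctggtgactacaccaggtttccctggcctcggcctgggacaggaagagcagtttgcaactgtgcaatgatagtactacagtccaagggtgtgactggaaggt
Klra8: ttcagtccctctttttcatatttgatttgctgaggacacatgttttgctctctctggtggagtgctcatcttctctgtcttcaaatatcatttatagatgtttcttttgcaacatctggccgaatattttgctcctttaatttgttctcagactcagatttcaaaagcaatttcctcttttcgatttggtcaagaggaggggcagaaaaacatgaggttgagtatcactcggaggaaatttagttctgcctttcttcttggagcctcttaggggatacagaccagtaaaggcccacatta

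The ATCAAAG core, as its reverse complement CTTTGAT, stood at position 145 of the Klra6 window and at position 175 of the Klra7 window, counted from the 5′ end, and in no other window of Klra1, Klra3, Klra4, Klra8 or Klra9. Of 32851 RefSeq windows of the same length, 3.73% held it. The TGTGGT core stood at position 50 of the Klra1 window and occurred in 16.8% of all windows. The Klra6 and Klra7 windows were identical at 69.4% of aligned positions, against 63.2% for Klra6 and Klra8 and 47.6% for Klra6 and Klra1. The Klra7 window was closer still to those of Klra8 (75.8%) and Klra4 (74.7%). Identity of the windows therefore did not follow which genes were found in these cells. A second RefSeq start of Klra7 held neither motif. These matches describe the letters of the windows; binding was not measured.

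Beyond the genes of the rule, the Klra1/Klra6 T cells carried Klra7 at the level of NK cells and lacked the activating receptors of the family. Levels are UMIs summed over the cells of a set in a library and scaled to that sum as CPM, with an exact Poisson interval. Klra7 stood at 507 CPM (539 UMIs) in metformin cells and at 439 CPM (475 UMIs) in control cells. In T cells of the same gate without Klra1 or Klra6 UMIs but with at least 2 Cd8a and Cd8b1 UMIs (Klra1/Klra6-negative CD8 T cells, 619 metformin and 636 control), Klra7 was at 3.92 and 6.08 CPM. In 327 metformin and 243 control NK cells it was at 433 and 360 CPM. Klra7 was thus more than an order of magnitude above the Klra1/Klra6-negative CD8 T cells in both libraries. Those cells are called the other CD8 T cells below. The short name does not class the Klra1/Klra6 T cells as CD8 T cells.

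Klra9 was at 53.6 CPM in metformin and 63.7 CPM in control Klra1/Klra6 T cells, and at 285 and 222 CPM in NK cells. Klra3 was at 12.2 CPM (13 UMIs) in metformin and 44.3 CPM (48 UMIs) in control cells, below the level at which a gene was compared. Klra4 had 1 UMI in metformin and 0 in control Klra1/Klra6 T cells, and Klra8 had 1 UMI in each library. In NK cells Klra4 stood at 675 CPM in metformin and 601 CPM in control and Klra8 at 505 and 469 CPM, so transcripts of both activating receptors were close to the floor in the T cells and high in NK cells. Klra5 was at 25.4 CPM in metformin and 20.3 CPM in control Klra1/Klra6 T cells. Klra1 itself was at 294 CPM in metformin and 341 CPM in control and Klra6 at 266 and 235 CPM, which the rule fixed in part. In NK cells Klra1 was at 91.3 CPM in metformin and 91.4 CPM in control and Klra6 at 11.2 and 4.96 CPM. Ly49 genes resemble each other, and reads of a 3′ library come from transcript ends. Of the 50-base stretches in the last 500 bases of the longest annotated transcript, 27.5% in Klra7 (with the pseudogene Klra13-ps), 44.8% in Klra9 and 42.4% in Klra3 also occurred in another family member, against 5.77% in Klra1 and 3.10% in Klra6. How the counting assigned such reads is not given in the sources used here, so the values of Klra3, Klra7 and Klra9 are uncertain to that extent.

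**Figure D1:**
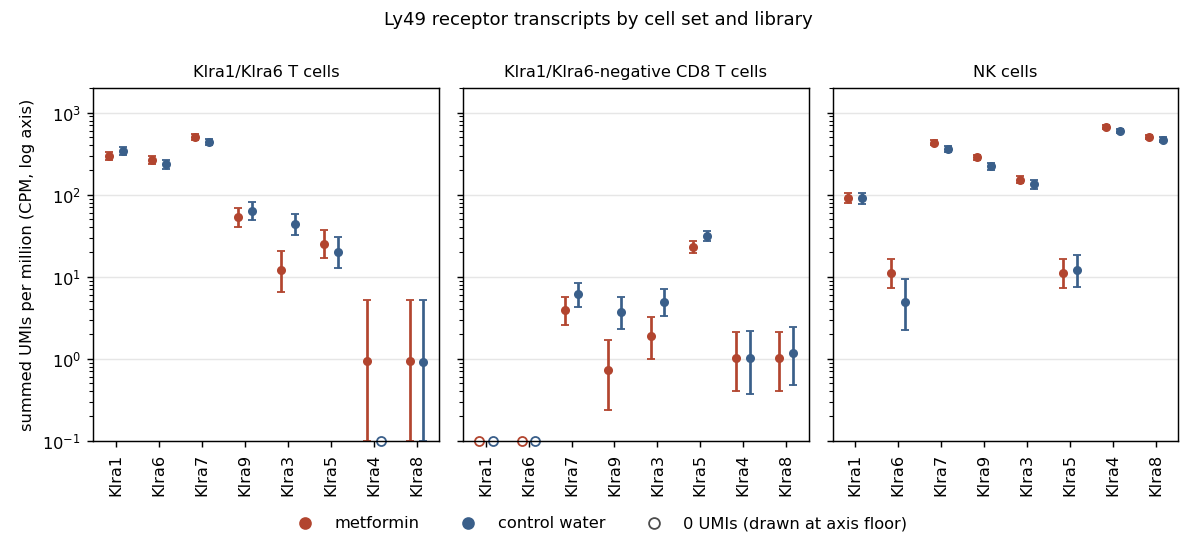
Levels of 8 Ly49 genes in CPM (log axis) in the Klra1/Klra6 T cells, in Klra1/Klra6-negative CD8 T cells and in NK cells, with metformin left of control and bars for the exact Poisson 95% interval. Klra7 was at 507 CPM in metformin and 439 CPM in control Klra1/Klra6 T cells and at 3.92 and 6.08 CPM in the other CD8 T cells, while Klra4 and Klra8 were high only in NK cells among these 3 sets; Klra1 and Klra6 were set by the rule in both T cell sets.

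Most cells carried more than 1 Ly49 gene. By the genes of the rule, 26 metformin and 30 control cells held Klra1 alone, 36 and 38 held Klra6 alone, and 49 and 40 held both. After each cell was thinned to 5686 UMIs, which left out 10 metformin and 11 control cells as shallower, Klra7 had a UMI in 77.2% of metformin cells (interval 67.8 to 85.0%) and 63.9% of control cells (interval 53.5 to 73.4%). Unthinned, the shares were 83.8% in metformin and 66.7% in control. B cells, which should lack the gene, had a thinned share of 1.11% in metformin and 0.719% in control at median depths of 5247.5 and 5719 UMIs. Thinned shares of Klra9 were 17.8% in metformin and 12.4% in control, against 0% and 0.360% in B cells. Counting Klra1, Klra3, Klra6, Klra7 and Klra9 together, 7.21% of metformin and 10.2% of control cells showed 1 of these genes, 37.8% and 49.1% showed 2, 44.1% and 36.1% showed 3, and 10.8% and 4.63% showed 4. The UMIs of Klra1 and Klra6 together had a median of 4 in both libraries and ran from 2 to 23 in metformin and from 2 to 27 in control cells.

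The constant genes of the T cell receptor, which the rule did not use, bore out the label of T cells. Nearly all the cells carried transcripts of an αβ receptor, which the limit on Trdc favoured. Trac, the constant segment of the receptor α chain, stood at 517 and 552 CPM in metformin and control cells, against 685 and 763 CPM in the other CD8 T cells and 17.7 and 19.8 CPM in NK cells. Trac together with Trbc1 or Trbc2, the β chain constant segments, had UMIs in 94.6% of metformin cells (105 of 111) and 96.3% of control cells (104 of 108), and no cell lacked all 3 genes. Cd5, another T cell marker, was at 47.0 CPM in metformin and 42.5 CPM in control. It was at 78.7 and 82.1 CPM in the other CD8 T cells and at 2.15 and 1.10 CPM in NK cells. Of 10 eligible T cell receptor and coreceptor genes outside the rule, 0 were higher and 4 lower than in the other CD8 T cells. Cd8b1, which helped choose those cells, was among the lower ones. A single Trdc UMI, the most the rule allowed, occurred in 1 metformin and 2 control cells. Variable segments were seen in few cells, because 3′ reads rarely reach them. A Trbv segment had a UMI in 18.0% of metformin cells (20 of 111) and 14.8% of control cells (16 of 108). The most frequent in the metformin library, Trbv13-2, was in 4 of those 20 cells, so no segment prevailed at this depth. Transcripts of the γ chain locus were also present: Trgv2 had a UMI in 17.1% of metformin and 25.9% of control cells. In the other CD8 T cells Trgv2 was in 21.0% of metformin and 11.8% of control cells, the opposite order of the libraries. Tcrg-V1, another variable segment of that locus, had a UMI in 7 metformin and 5 control Klra1/Klra6 T cells (6.31% and 4.63%). Among the other CD8 T cells it was in 0 of 619 metformin cells, which allows a share of up to 0.485%, and in 1 of 636 control cells.

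Most of the cells showed no transcript of a coreceptor. No UMI of Cd8a, Cd8b1 or Cd4 was found in 66.7% of metformin cells (74 of 111, interval 57.1 to 75.3%) and in 60.2% of control cells (65 of 108, interval 50.3 to 69.5%). After thinning these shares were 71.3% in metformin and 66.0% in control. Cd8a or Cd8b1 without Cd4 was found in 32.4% of metformin and 35.2% of control cells, and at least 2 of their UMIs in 18.9% and 29.6%. Cd4 without either occurred in 1 metformin and 4 control cells. Cd8a, the chain shared by both forms of the coreceptor, was present without Cd8b1 in 16.2% of metformin and 16.7% of control cells. Cd8b1, the chain found only in the αβ form, was in 16.2% of metformin and 19.4% of control cells. B cells had a thinned Cd8b1 share of 0% in metformin and 1.08% in control. The other CD8 T cells were chosen by these genes, so how many cells lack a Cd8 UMI through depth was not tested. Surface protein was not measured.

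Zbtb16, which encodes PLZF, the factor that directs NKT cell development, had 1 UMI in metformin and 2 UMIs in control Klra1/Klra6 T cells, and no cell kept one after thinning. That is 0 of 101 metformin and 0 of 97 control cells. Il4 had 0 UMIs in both libraries, and Cd40lg, another gene of activated helper and NKT cells, was at 3.76 CPM in metformin and 5.54 CPM in control. Eomes and Tbx21, the transcription factors of cytotoxic memory, stood at 45.1 CPM in metformin and 37.0 CPM in control and at 46.1 and 40.7 CPM, close to the 32.4 and 49.3 CPM and the 49.1 and 45.5 CPM of the other CD8 T cells. Zbtb16 thus did not bear out a description as NKT cells, but 1 transcript near 0 UMIs cannot exclude it. Klrb1c, the gene of the NK1.1 antigen, had UMIs in 55.4% of metformin and 47.7% of control cells without a coreceptor UMI. A Cd8 transcript without Cd4 was seen in 32.4% of metformin and 35.2% of control cells. Whether the rest lack one through depth was not tested, so neither description is settled for the whole set. The name by Klra1 and Klra6 is therefore kept.

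**Figure D2:**
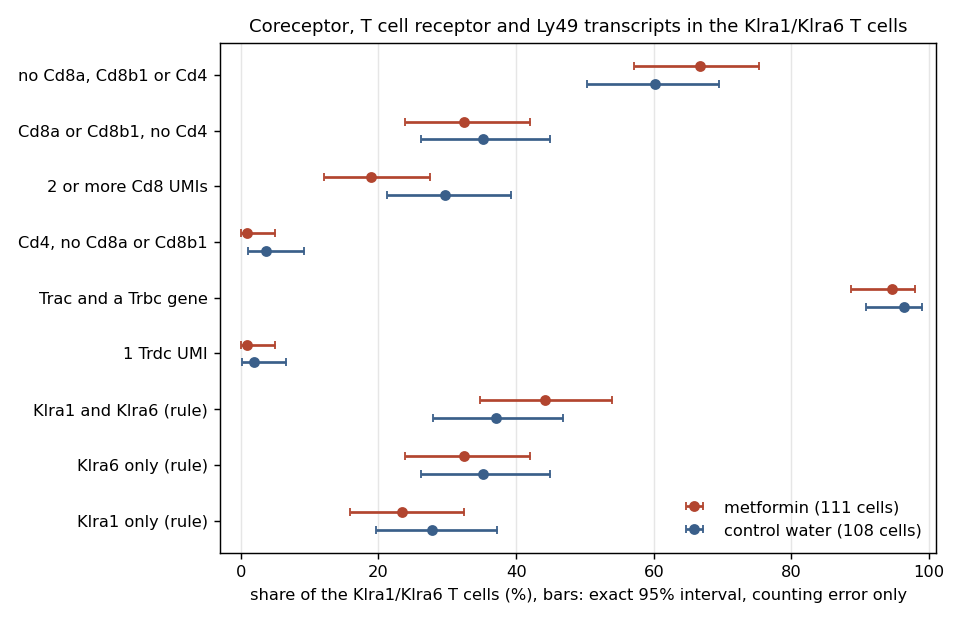
Share of the Klra1/Klra6 T cells (percent) with UMIs of coreceptor, T cell receptor and Ly49 genes, 111 metformin cells above 108 control cells in each row, with exact binomial 95% intervals that cover counting error. Most cells had no Cd8a, Cd8b1 or Cd4 UMI (66.7% in metformin and 60.2% in control) while 94.6% and 96.3% had Trac and a Trbc gene; the 3 lowest rows follow from the rule.

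Receptors shared with NK cells were present to unequal degrees. Klrk1, which encodes NKG2D, the receptor by which NK cells and T cells see stress-induced ligands, was at 347 CPM in metformin and 365 CPM in control cells. This was near the 334 CPM of metformin and 328 CPM of control CD8 T cells without Klra1 or Klra6 and below the 979 and 960 CPM of NK cells. Hcst, the adaptor DAP10 through which NKG2D signals, was at 566 CPM in metformin and 585 CPM in control, against 828 and 793 CPM in the other CD8 T cells. Klrd1, the CD94 chain, was at 546 CPM in metformin and 600 CPM in control and Klrc1, its inhibitory partner NKG2A, at 88.4 and 82.2 CPM. Klrc1 was at 336 CPM in metformin and 273 CPM in control cells among the other CD8 T cells. Klrb1c, the NK1.1 antigen of C57BL/6 mice, had a thinned share of 35.6% in metformin and 29.9% in control Klra1/Klra6 T cells, 0.544% and 0.762% of the other CD8 T cells, 83.3% and 89.3% of NK cells and 0% and 0.360% of B cells. Fcer1g, the Fc receptor γ chain that serves as an adaptor in NK cells, had thinned shares of 74.3% in metformin and 66.0% in control, against 11.1% and 11.4% in the other CD8 T cells and 13.3% and 18.7% in B cells. Tyrobp, the adaptor of the activating Ly49 receptors, had thinned shares of 33.7% in metformin and 33.0% in control beside 25.6% and 22.3% in B cells. How much of the Tyrobp share is background was not tested. Its level was 132 CPM in metformin and 138 CPM in control, against 31.4 and 34.1 CPM in the other CD8 T cells and 2146 and 2220 CPM in NK cells.

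Set against the other CD8 T cells within each library, the Klra1/Klra6 T cells were higher in Ikzf2, Xcl1, Cd7, Fcer1g and 6 of 15 CD8 memory genes and lower in 6 of 13 cytotoxic and 4 of 8 checkpoint genes. A gene was called when it reached 50 CPM and 20 UMIs in 1 of the sets and differed at least 1.5 times in either direction, with 1 outside the interval of the ratio. In both libraries alike, 101 of 2500 eligible genes (4.04%) were higher and 233 (9.32%) were lower in the Klra1/Klra6 T cells, the genes of the rule included. Cells were chosen one by one and not replicated, so these calls describe the 2 libraries and are not tests. Cd8a and Cd8b1 chose the cells of comparison, and nothing is read from their being lower.

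Ikzf2, which encodes the transcription factor Helios, stood at 861 CPM in metformin and 848 CPM in control Klra1/Klra6 T cells, against 66.3 and 81.5 CPM in the other CD8 T cells. The ratio was 13.0 (interval 11.6 to 14.5) in the metformin library and 10.4 (interval 9.32 to 11.7) in the control library. Ikzf2 had a UMI in 94.1% of metformin and 86.6% of control Klra1/Klra6 T cells after thinning, in 17.4% and 20.4% of the other CD8 T cells and in 1.11% and 1.80% of B cells. NK cells were at 62.0 CPM in metformin and 73.2 CPM in control, so Ikzf2, unlike Klra7, was high in the Klra1/Klra6 T cells and low in NK cells. CD4 T cells of the same gate without Klra1 or Klra6 were at 201 CPM in metformin and 176 CPM in control. That is above the other CD8 T cells and below the Klra1/Klra6 T cells. Helios is also known from regulatory T cells, and Foxp3 was at 0 by the rule.

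Xcl1, a chemokine that draws cross-presenting dendritic cells, was at 685 CPM against 86.8 CPM in the other CD8 T cells of metformin and at 736 CPM against 69.5 CPM in control. The ratios were 7.89 (interval 7.07 to 8.80) and 10.6 (interval 9.40 to 11.97). Cd7, a surface protein of T and NK lineage cells, was at 324 CPM against 47.9 CPM in metformin and at 422 CPM against 56.6 CPM in control. Id3, a repressor of E protein factors, was at 121 CPM against 17.0 CPM in metformin and at 74.8 CPM against 14.5 CPM in control. The rule for the highest ratios also named Klra7, Klra9 and Klrb1c, the RNA-binding protein gene Rbpms (ratios of 24.8 in metformin and 28.1 in control), the sodium pump subunit gene Atp1b1 (14.3 and 12.6), Klhdc2 (7.08 and 6.09) and Fcer1g (8.68 and 4.91).

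The lowest ratios included granzyme and checkpoint genes. Gzma was at 20.7 CPM against 2872 CPM in the other CD8 T cells of metformin and at 37.0 CPM against 4180 CPM in control. Gzmb, whose protease triggers death of target cells, was at 113 CPM against 1755 CPM in metformin and at 216 CPM against 1862 CPM in control. Gzmk had 5 UMIs in metformin cells, a ratio of 0.0233 (interval 0.00756 to 0.0545). It had 0 UMIs in control cells, where it was at least 69.0-fold lower than the 191 CPM of the other CD8 T cells, taking 3 UMIs as the floor. Pdcd1, the gene of the checkpoint receptor PD-1, was at 14.1 CPM against 211 CPM in metformin and at 7.39 CPM against 240 CPM in control. Havcr2 and Lag3, genes of the checkpoint receptors TIM-3 and LAG-3, had ratios of 0.0444 and 0.0937 in metformin and of 0.0451 and 0.0348 in control. Ifitm1 (0.00477 in metformin and 0.0643 in control), S100a4 (0.0844 and 0.0950), Ly6a (0.103 and 0.103) and the metallothionein gene Mt1 (0.0618 and 0.0267) completed the rule. Of the 86 control Ifitm1 UMIs, 79 lay in 3 cells.

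**Figure D3:**
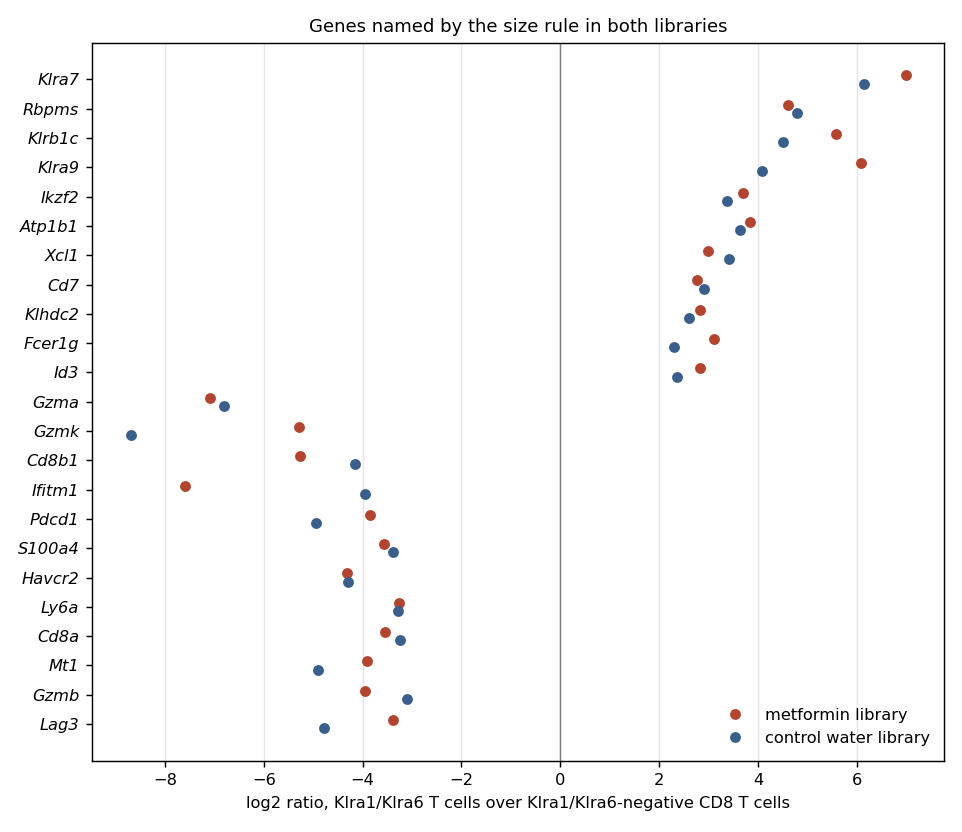
Log2 ratio of the level in the Klra1/Klra6 T cells to that in Klra1/Klra6-negative CD8 T cells, for genes that the rule named among the highest and lowest called in both libraries, metformin above control in each row, with 0.5 UMI added to each sum. All genes shown lie on the same side of 0 in both libraries because the rule required it; Gzmk in the control library had 0 UMIs and its point depends on the added 0.5 UMI, and Cd8a and Cd8b1 follow from how the cells of comparison were chosen.

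Medians are log2 ratios of the Klra1/Klra6 T cells to the other CD8 T cells, beside medians of -0.15 and -0.10 over all eligible genes outside the rule in the metformin and control libraries. Of 15 eligible genes of CD8 memory and the interleukin-15 response, 6 were higher and 1 lower (medians 0.47 in metformin and 0.31 in control). The higher ones included Id3, Tcf7 and Lef1, the transcription factors of naive and memory T cells, Bcl2, a survival gene, and Il2rb, the receptor chain for interleukin-2 and interleukin-15. Il2rb stood at 453 CPM against 273 CPM in metformin and at 512 CPM against 306 CPM in control, and Bcl2 at 447 CPM against 214 CPM in metformin and at 579 CPM against 273 CPM in control. Id2 was the lower one, at 296 CPM against 879 CPM in metformin and at 377 CPM against 909 CPM in control. Ly6c2, Cd44 and Il7r had ratios between 0.991 and 1.39 and were not called. Of 13 cytotoxic genes, 0 were higher and 6 lower, with Gzma, Gzmb, Gzmk, Prf1, Nkg7 and Fasl below the other CD8 T cells. Prf1, the perforin gene, was at 14.1 CPM against 131 CPM in metformin and at 19.4 CPM against 258 CPM in control. Of 8 checkpoint genes, 4 were lower and 0 higher (medians -1.75 in metformin and -1.46 in control).

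Genes of tissue entry and exit split. Of 17 eligible residence and trafficking genes, 4 were higher and 6 lower. S1pr1, the receptor that lets lymphocytes leave tissue, was at 101.6 CPM against 48.0 CPM in metformin and at 110.9 CPM against 43.9 CPM in control, and Klf2, which drives its expression, at 634 CPM against 183 CPM in metformin and at 414 CPM against 180 CPM in control. Klf3 and Cxcr4 were the others called higher. Cxcr6, a receptor of tissue-resident T cells, was at 51.7 CPM against 580 CPM in metformin and at 67.4 CPM against 552 CPM in control, and the integrin gene Itga1 at 56.4 CPM against 134 CPM in metformin and at 56.4 CPM against 107 CPM in control. Cd69, an early activation and residence marker, had ratios of 1.34 in metformin and 1.33 in control and was not called. Among 8 cytokine and chemokine genes, Xcl1 and Cxcl10 were higher, while Ifng, Ccl3 and Ccl4 were lower. Ifng, the interferon-γ gene, was at 55.5 CPM against 238 CPM in metformin and at 34.2 CPM against 209 CPM in control. Ccl5 was at 6527 CPM against 8249 CPM in metformin and at 5323 CPM against 9266 CPM in control and was not called.

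Among metabolic lists, some genes of glycolysis were lower and some of the mitochondrial genome higher. Of 14 hypoxia and glycolysis genes, 0 were higher and 4 lower. They were Hif1a, the oxygen-sensitive transcription factor gene (58.3 CPM against 126 CPM in metformin and 52.7 CPM against 144 CPM in control), Pkm, Aldoa and Gapdh. Ldha was at 291 CPM against 385 CPM in metformin and at 321 CPM against 419 CPM in control and was not called. Of 42 subunit genes of mitochondrial complex I, 6 were higher and 3 lower. The 6 higher ones were all encoded in the mitochondrial genome (mt-Nd1, mt-Nd2, mt-Nd3, mt-Nd4, mt-Nd4l and mt-Nd5, ratios between 1.51 and 2.02), and the 3 lower ones, Ndufa8, Ndufb8 and Ndufb9, in the nucleus. The 3 lower genes of 42 are no larger a share than the 9.32% called lower over all eligible genes. The median share of mitochondrial UMIs per cell was 5.55% in metformin and 5.34% in control Klra1/Klra6 T cells against 3.85% and 3.73% in the other CD8 T cells, and its part in these ratios was not tested. Of 24 interferon response genes, 0 were higher and 3 lower, and of 12 heat shock genes none was called either way.

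Beside NK cells, 94 of 2648 eligible genes (3.55%) were higher and 339 (12.8%) lower in the Klra1/Klra6 T cells of both libraries. Ncr1 and the Cd3 genes chose the 2 sets, and nothing is read from them. Ly6c2 was at 1867 CPM in metformin and 1474 CPM in control Klra1/Klra6 T cells and at 146 and 116 CPM in NK cells. Xcl1 was at 855 CPM in metformin and 759 CPM in control NK cells and Cd7 at 362 and 374 CPM, levels near those of the Klra1/Klra6 T cells. Gzma at 5545 CPM in metformin and 5471 CPM in control and Prf1 at 465 and 464 CPM set NK cells far above them.

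Cells that the rule left out by Trdc or Ncr1 alone were few. With 2 or more Trdc UMIs but all other conditions met there were 12 metformin and 8 control cells, and with an Ncr1 UMI 18 and 8. In these cells with Trdc, Ikzf2 was at 645 CPM in metformin and 903 CPM in control, Klra7 at 190 and 352 CPM and Trac at 75.9 and 0 CPM. T cells with 1 UMI of Klra1 and Klra6 were near the chosen cells in Ikzf2, with less Klra7 and more Cd8b1. In these 41 metformin and 38 control cells Ikzf2 stood at 793 and 699 CPM, Klra7 at 158 and 150 CPM and Cd8b1 at 172 and 141 CPM.

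Within the Klra1/Klra6 T cells, few genes were called between those without Cd8a, Cd8b1 or Cd4 UMIs (74 metformin, 65 control) and those with a Cd8 UMI (36 metformin, 39 control). These sets are small and a call was needed in both libraries, so few calls do not show that the cells are alike. In both libraries 14 of 2281 eligible genes (0.614%) were higher and 9 (0.395%) lower, Cd8a and Cd8b1 among them by the split. The higher genes included the NK-type genes Fcer1g, Klrb1c, Tyrobp and Klrc1. Fcer1g was at 526 CPM in metformin and 555 CPM in control without a coreceptor UMI against 284 and 369 CPM with Cd8. Klrb1c was at 120 CPM against 47.7 CPM in metformin and at 120 CPM against 35.7 CPM in control (ratios 2.51 and 3.35). Tyrobp was at 156 CPM against 90.2 CPM in metformin and at 217 CPM against 30.9 CPM in control. Klrc1 had UMIs in 28.4% of metformin cells without a coreceptor UMI against 36.1% of those with Cd8, and in 29.2% against 20.5% of control cells, so in metformin its share ran opposite to its level. Gzmb, Id2, Ahr, the aryl hydrocarbon receptor gene, Car2, Cd9, Nt5e, Phlda1, Adgre5, Nufip2 and Odc1 were the other genes called higher. Ikzf2 did not separate them, at 890 CPM in metformin and 983 CPM in control without a coreceptor UMI and 811 and 676 CPM with Cd8. Klra7, at 518 CPM against 496 CPM in metformin and at 482 CPM against 414 CPM in control, was not called either. Stmn1, a microtubule regulator gene of dividing cells, was lower, at 53.3 CPM against 106 CPM in metformin and at 43.7 CPM against 274 CPM in control, but not once the richest cell of each set was left out.

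The metformin and control libraries held 111 and 108 of these cells. They made up 2.41% of metformin cells (interval 1.99 to 2.89%) and 1.99% of control cells (interval 1.63 to 2.39%), a ratio of 1.21 (interval 0.922 to 1.60). Of T cells by the same gate they were 8.01% (111 of 1386) and 6.54% (108 of 1651), a ratio of 1.22 (interval 0.931 to 1.61). Both intervals include 1, but the interval moved with the gate. With at least 3 Klra1 and Klra6 UMIs there were 92 metformin and 76 control cells, a ratio of 1.43 (interval 1.04 to 1.96), and with no limit on Ncr1 there were 129 and 116, a ratio of 1.31 (interval 1.01 to 1.70). Neither interval includes 1. Other gates gave lower ratios with intervals that include 1. With at least 500 genes and at most 5% mitochondrial UMIs there were 34 metformin and 39 control cells, a ratio of 1.05 (interval 0.644 to 1.71). Thinning before the gate left 78 and 75, a ratio of 1.16 (interval 0.833 to 1.61).

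In the transcripts, metformin cells were higher in Fos, Junb, Dusp1 and other genes switched on within minutes of a stimulus, in the heat shock genes Hspa1a and Dnajb1 and in the costimulatory receptor genes Icos and Cd28. They were lower in Gzmb, Tnfrsf9, Mthfd2 and Srm. By the size rule 77 of 2480 eligible genes (3.10%) were higher and 104 (4.19%) lower in metformin cells, and 74 and 89 also met it without the richest cell of each library. The median log2 ratio over all eligible genes was -0.04. The library and the treatment cannot be told apart, since each group was 1 library.

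Fos, a subunit of the AP-1 transcription factor, was at 372 CPM (396 UMIs) in metformin and 162 CPM (175 UMIs) in control cells, a ratio of 2.30 (interval 1.92 to 2.77). After thinning it had a UMI in 57.4% of metformin and 35.1% of control cells. Junb, a partner of Fos, reached 1158 CPM in metformin and 661 CPM in control cells, 1.75 times as much (interval 1.60 to 1.92). Dusp1, a phosphatase gene that shuts off MAP kinases, had 143 CPM in metformin and 54.5 CPM in control cells, a ratio of 2.62 (interval 1.93 to 3.61). Cebpb, a transcription factor gene of inflammatory responses, had the bound farthest from 1, at 216 CPM in metformin and 86.8 CPM in control (ratio 2.49, interval 1.95 to 3.20). Fosl2 (ratio 2.01), Ier2 (1.83), Csrnp1 (2.76) and the small GTPase gene Rhob (2.25) were also named. The inducible chaperone gene Hspa1a stood at 682 CPM in metformin against 310 CPM in control, a ratio of 2.20 (interval 1.93 to 2.52). Its cochaperone gene Dnajb1 stood at 162 CPM in metformin against 74.8 CPM in control, a ratio of 2.16 (interval 1.65 to 2.85). Icos had 60 UMIs in metformin and 21 in control cells (56.4 and 19.4 CPM, ratio 2.91, interval 1.74 to 5.03), and its thinned share was 21.8% and 10.3%. In cells without a coreceptor UMI the Icos ratio was 1.48 (interval 0.707 to 3.22) on 21 and 13 UMIs, and in cells with Cd8 it was 4.68 (interval 1.72 to 15.9). Dnajb1 had a ratio of 1.44 (interval 0.922 to 2.26) in cells with Cd8 and was not called there. Cd28, the main costimulatory receptor of T cells, stood at 192 CPM in metformin against 97.0 CPM in control, a ratio of 1.98 (interval 1.56 to 2.53), with thinned shares of 54.5% and 40.2%. Several of these genes were not particular to this set. Dusp1 (ratio 2.21), Fos (1.96) and Cd28 (1.53) were also called higher in NK cells, and Cebpb (1.76) and Csrnp1 (1.71) in B cells. In the other CD8 T cells Cebpb (0.844), Dusp1 (0.790), Fos (0.803) and Cd28 (1.01) were not called.

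Among the genes lower in metformin cells, Mthfd2, an enzyme gene of mitochondrial folate metabolism, stood at 23.5 CPM in metformin and 60.1 CPM in control cells (ratio 0.392, interval 0.236 to 0.630). Srm, the spermidine synthase gene, was at 26.3 CPM in metformin and 65.6 CPM in control (ratio 0.401). Tnfrsf9, which encodes the costimulatory receptor 4-1BB, stood at 30.1 CPM in metformin against 72.1 CPM in control (ratio 0.418, interval 0.268 to 0.638). It was not particular to these cells. Tnfrsf9 was also called lower in the other CD8 T cells (ratio 0.484, interval 0.418 to 0.559) and in NK cells (0.598, interval 0.488 to 0.731). In CD4 T cells without Klra1 or Klra6 it was not called (1.09). Gzmb stood at 113 CPM in metformin and 216 CPM in control cells (ratio 0.522, interval 0.415 to 0.653), while its thinned share was 20.8% and 26.8% with overlapping intervals. In CD4 T cells without Klra1 or Klra6, Gzmb was called the other way (2.14, interval 1.87 to 2.46). It was not called in the other CD8 T cells (0.942) or in NK cells (0.897). Cd8b1 was at 33.9 and 73.0 CPM (ratio 0.464), with UMIs in 18 metformin and 21 control cells, so the level differed more than the number of cells. With at least 3 Klra1 and Klra6 UMIs, Tnfrsf9 (ratio 0.665, interval 0.383 to 1.14) and Mthfd2 (0.5003, interval 0.269 to 0.906) were under the level for comparison. Ttc3 (ratio 0.422), Fgl2 (0.497) and the RNA exosome gene Exosc2 (0.557) were also named. Exosc2 UMIs lay in 16 metformin and 29 control cells, and its ratio was 1.15 with a stricter cell filter, 1.41 in cells with Cd8 and 0.254 in cells without a coreceptor UMI.

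Of the named genes, 3 rested on few cells or on transcripts spread through a library. Gh, the growth hormone gene of the pituitary, had 1 UMI in metformin and 71 UMIs in control cells (ratio 0.0143, interval 0.000358 to 0.0825). Over all filtered cells Gh had 49 metformin and 108123 control UMIs, 49.6% of the control UMIs in 1 cell. Ifitm2 had 1 metformin and 61 control UMIs (ratio 0.0167, interval 0.000416 to 0.0965) and Ifitm1 6 and 86 (ratio 0.0710, interval 0.0254 to 0.161). In control cells, 54 of 61 Ifitm2 UMIs and 79 of 86 Ifitm1 UMIs lay in 3 cells. In NK cells both were called lower in metformin on more UMIs, Ifitm1 with 86 and 691 (ratio 0.0973) and Ifitm2 with 106 and 371 (0.223). In CD4 T cells without Klra1 or Klra6, Ifitm2 was called lower (0.617) and Ifitm1 was not (0.705). Neither was called in the other CD8 T cells (0.958 for Ifitm1 and 0.954 for Ifitm2).

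**Figure D4:**
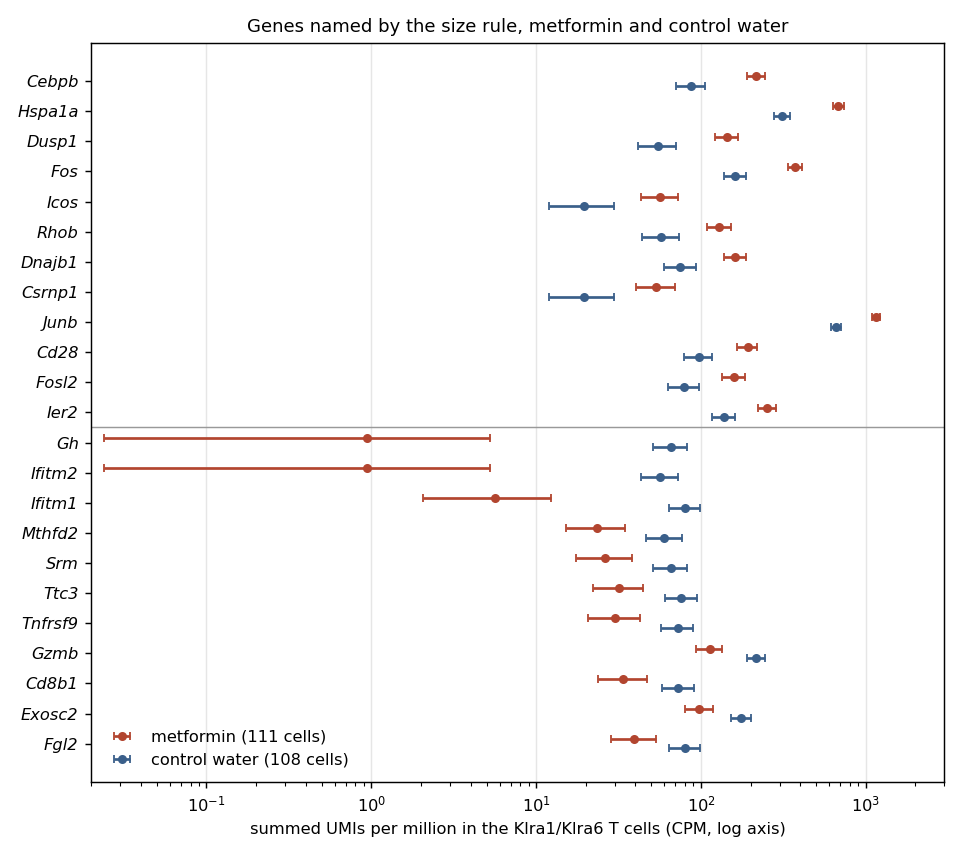
Levels in CPM (log axis) of genes that the rule named among the highest and lowest in metformin over control, in 111 metformin cells (above in each row) and 108 control cells, with exact Poisson 95% intervals that leave out the spread between cells. Fos stood at 372 and 162 CPM and Gzmb at 113 and 216 CPM; Gh and Ifitm2 rest on 1 metformin UMI each.

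Of 22 eligible immediate early genes, 11 were higher and 1, Egr1, lower in metformin cells, with a median log2 ratio of 0.56 against -0.04 for all eligible genes. Egr1 (ratio 0.634) no longer met the rule without its richest cells. Besides those named, Fosb (1.63), Crem (1.66), Tnfaip3 (1.64), Dusp5 (1.65), Ppp1r15a (1.77) and Nr4a2 (1.51) were called. In the other CD8 T cells of the same libraries 0 of 22 were called either way (median -0.15), where 32 of 2550 eligible genes (1.25%) were higher and 17 (0.667%) lower. Fos was at 95.8 CPM in metformin and 119 CPM in control there and Junb at 540 and 574 CPM. CD4 T cells without Klra1 or Klra6 had 0 of 22 called and a median of 0.05, beside 0.692% of 2744 eligible genes higher and 1.13% lower. In NK cells 5 of 22 were higher and 0 lower (median 0.33), beside 1.02% of 2851 eligible genes higher and 1.47% lower, with Fos at 348 CPM in metformin and 178 CPM in control. In B cells 3 of 20 were higher and 0 lower (median 0.42), beside 2.30% of 2517 eligible genes higher and 1.79% lower. The list's median was 0.42 or below in each of these 4 sets, against 0.56 in the Klra1/Klra6 T cells; the differences between sets were not tested. Of 13 heat shock genes 4 were higher and 0 lower (median 0.49), Hspa1a, Hspa1b and Dnajb1 among them. Their medians were 0.00 in the other CD8 T cells, 0.22 in CD4 T cells, 0.13 in NK cells and 0.01 in B cells. Hspa1a was called higher in the other CD8 T cells too, at 795 CPM in metformin and 526 CPM in control. Both lists are known to respond to tissue dissociation, whose part was not tested.

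**Figure D5:**
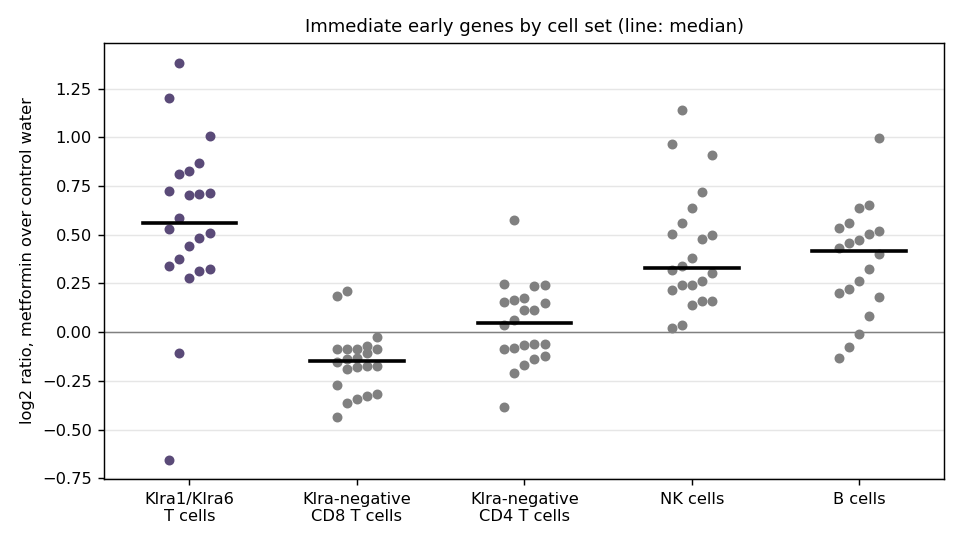
Log2 ratio of metformin over control for each eligible immediate early gene (points) and their median (line) in the Klra1/Klra6 T cells, 2 other T cell sets, NK cells and B cells of the same 2 libraries. The median was 0.56 in the Klra1/Klra6 T cells, -0.15 and 0.05 in CD8 and CD4 T cells without Klra1 or Klra6, 0.33 in NK cells and 0.42 in B cells.

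Of the Ly49, other NK receptor and adaptor lists, 1 gene was called between metformin and control cells, beside 3.10% of 2480 eligible genes higher and 4.19% lower. Of 11 T cell receptor and coreceptor genes 1 was higher, Cd28, and 1 lower, Cd8b1. Of 4 eligible Ly49 genes 0 were called, with ratios of 0.863 for Klra1, 1.13 for Klra6, 1.16 for Klra7 (interval 1.02 to 1.31) and 0.841 for Klra9. Klra1 and Klra6 chose the cells, so their ratios support nothing further. Of 8 other NK receptor genes 1 was lower, Cd226, the gene of the activating receptor DNAM-1 (40 UMIs in metformin and 66 in control, ratio 0.617, interval 0.406 to 0.927). Klrk1 had a ratio of 0.951 (interval 0.823 to 1.10) and Klrd1 of 0.911. None of 6 adaptor genes was called, and Fcer1g was at 435 CPM in metformin and 468 CPM in control. Ikzf2 had a ratio of 1.01 (interval 0.925 to 1.11) and Xcl1 of 0.930. In the 36 metformin and 39 control cells with Cd8, a lower ratio was called for Klrk1 (0.533, interval 0.390 to 0.721). Klra1 also met the size rule there (0.538, interval 0.385 to 0.745), but it chose the cells, and nothing is read from it. Higher ratios were called in the cells with Cd8 for Tyrobp (2.92, interval 1.4995 to 6.02) and Xcl1 (1.63, interval 1.32 to 2.02). More genes were called higher in this smaller set than in all the cells, and the share over its eligible genes is not given here. These calls therefore do not set the receptor genes apart. Of 5 checkpoint genes Nr4a2 was higher and Tnfrsf9 and Cd96 (ratio 0.616) lower. Of 9 cytotoxic genes Gzmb was lower and Serpinb9, an inhibitor gene of granzyme B, higher (ratio 1.65). Gzma had 22 UMIs in metformin and 40 in control and was below the level for comparison, and Nkg7 was at 922 CPM in metformin and 923 CPM in control. Among 7 cytokine genes Ifng was higher, at 55.5 CPM in metformin and 34.2 CPM in control (ratio 1.62, interval 1.06 to 2.52). Klf2 (ratio 1.53) and Cxcr4 (ratio 1.76) were the genes called among 14 of residence and trafficking, both higher, and Id3 (ratio 1.62) among 15 of CD8 memory.

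Lists that bear on oxygen use did not stand apart. Metformin is known to inhibit respiratory complex I, and of 42 complex I subunit genes 0 were called, with a median log2 ratio of -0.10 and a range of -0.46 to 0.26. Of 14 hypoxia and glycolysis genes 0 were called (median -0.08). Hif1a stood at 58.3 CPM in metformin against 52.7 CPM in control (ratio 1.11, interval 0.760 to 1.62), Ldha at 291 and 321 CPM and the hypoxia-induced gene Ddit4 at a ratio of 0.702 (interval 0.457 to 1.07). Of 23 interferon response genes 0 were called (median 0.10). Of 5 integrated stress response genes Mthfd2 was lower, and Atf4, the factor that drives that response, had a ratio of 1.41 (interval 1.08 to 1.83) and was not called. Of 5 BCL2 family genes, Bcl2a1b was higher (ratio 1.98), while Bcl2 had a ratio of 0.771 (interval 0.683 to 0.870). Bcl2a1b has near-identical neighbouring copies, which makes its count uncertain. Of 7 cell cycle genes 2 were lower, Top2a (18 UMIs in metformin and 56 in control) and Stmn1 (76 in metformin and 144 in control), both lost when the richest cell of each library was left out.

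Transcripts of other cell types were few and uneven. The 11 dendritic cell markers summed to 182 CPM in metformin and 871 CPM in control cells, with 3 and 1 of them at 0. The 12 macrophage and monocyte markers summed to 360 CPM in metformin and 608 CPM in control, with 1 at 0 in each library. In control, 1 cell held 784 of 868 UMIs of H2-Aa, H2-Ab1, H2-Eb1 and Cd74 and 280 of 558 UMIs of Lyz2, Cst3 and Apoe; the richest metformin cell held 18 of 152 and 38 of 304. Without 1 such cell from each library, 72 genes were called higher and 93 lower in metformin cells, and the number of genes then eligible is not given here. The 8 B cell markers summed to 163 CPM in metformin and 176 CPM in control, and the 12 NK cell markers to 1125 and 1169 CPM with Ncr1 at 0 by the rule.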

How the data were processed

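The authors deposited 1 matrix of whole-number UMI counts per library, with 31053 genes. Cell Ranger, Seurat and the build mm10 are named in the submitters' processing notes. The matrix software was version 3.0.0 per the file headers. Aligner settings and annotation are not given in the sources used here. Barcodes with fewer than 300 genes or over 10% mitochondrial UMIs were left out (Python 3.11.15, scanpy 1.11.5 with Scrublet at an expected rate of 5%, scipy 1.17.1). All cell sets were gated on raw UMIs, so they may differ from those of the study. NK cells held an Ncr1 UMI and B cells at least 2 Cd79a UMIs, both without Cd3 UMIs. Counts were summed per set and library, with exact Poisson, Clopper-Pearson and conditional ratio intervals; log2 ratios add 0.5 UMI to each sum. Shares were also taken after thinning. Members and lists were chosen with earlier results of these data known. Called genes were ranked by the bound of the interval that lay nearer to 1, and 12 in each direction were named that stayed called without the richest cell (metformin over control) or were called in both libraries (against CD8 T cells), plus a fixed set and up to 4 genes of a list. Receptor segments, ribosomal, mitochondrial, haemoglobin, sex-linked and predicted genes were not ranked. Sequences are RefSeq windows of GRCm38.p6, and shared stretches come from GENCODE transcripts of GRCm38. The calculation was tested on simulated data. A few genes that the rule named are not reported here.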

Additional observations from a re-analysis of the deposited data

How the results depend on the processing

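The share ratio of metformin over control ran from 1.05 to 1.43 over its alternatives, and its interval no longer held 1 with at least 3 Klra1 and Klra6 UMIs (1.43) or with no limit on Ncr1 (1.31). A stricter cell filter (at least 500 genes, at most 5% mitochondrial UMIs) kept 34 metformin and 39 control cells and called 130 genes higher and 166 lower, with 17 genes of the lists lower, against 77, 104 and 9 in the report. Cells with a Cd8 UMI gave 143 higher, with 39 list genes higher (23 in the report) and 17 lower. At least 3 Klra1 and Klra6 UMIs gave 14 list genes lower. With no floor on CPM and UMIs, 232 were higher, 410 lower and 22 list genes lower. The number of eligible genes changes with the cells kept and with the floor, and it is not given here for these settings. Their counts are therefore not shares, and a larger count is not read as a larger difference. Exosc2 turned to 1.15 under the stricter filter and to 1.41 in cells with a Cd8 UMI; the cause was not tested. Leaving out Scrublet, which removed none of these cells, the scaling and the added UMI, 394 of 462 recomputed gene ratios stayed within the counting interval and 138 of 144 list medians within their range. Of the gene ratios, 66 moved and 2 reversed. Some settings changed few cells (110 metformin and 106 control cells had no Trdc UMI). The range of a short list can span all its genes, so these counts are a weak check. In cells with Cd8, 4 receptor, adaptor or chemokine genes not called in the report were called (Klra1, Klrk1, Tyrobp and Xcl1), and Icos was not called without a coreceptor UMI. Klra1 chose the cells, and nothing is read from its call. Csrnp1, Srm and Ifitm2 had too few UMIs for a call in cells with Cd8, and Ttc3 and Cd8b1 were not called under the stricter filter. Means of per-cell CPM carry no interval and gave no count of calls. Sets without a coreceptor UMI, without cells rich in other cells' transcripts and the thinned makeup were added after the data were seen. No paired analysis was possible because each group has 1 library. At the depth of 111 and 108 cells, genes under 50 CPM could not be compared.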

Other observations

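Several genes, picked after their values were seen and from no list, were lower in metformin than in control Klra1/Klra6 T cells by the size rule. The ratio was 0.609 (interval 0.460 to 0.803) for Nop58 and 0.572 (interval 0.380 to 0.849) for Gar1, both of small nucleolar particles. It was 0.575 (interval 0.378 to 0.864) for Paics, of purine synthesis, and 0.642 (interval 0.535 to 0.769) for Nme1. Cdk4 and Cdk6, kinase genes of cell cycle entry, had ratios of 0.582 and 0.518, with intervals of 0.416 to 0.806 and of 0.319 to 0.824. Among genes higher in metformin cells and in no list, Socs3, an inhibitor gene of cytokine signalling, had a ratio of 1.96 (interval 1.39 to 2.78). Rel, an NF-κB subunit gene, and Bach2, a repressor gene of effector differentiation, both had ratios of 1.90, with intervals of 1.36 to 2.70 and 1.20 to 3.07.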
